A study of Mus musculus with 3 samples.

Results

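The 46 genes described here run the cell division cycle and copy the DNA: cyclins and their kinases, E2f factors with the pocket proteins that hold them, the origin licensing proteins and the replicative helicase, enzymes that supply nucleotides, and the kinases and checkpoint proteins of mitosis. They form a list of names whose rule uses no measured value, and were found on the arrays by the gene name of the file or by the RefSeq accession of the probe. All 46 were present among the 30338 genes with a probe, on 72 probes. Transcript levels were measured on 3 two-colour Agilent arrays that cover the whole mouse genome. The RNA came from EpH4-PR cells, that is, EpH4 mouse mammary epithelial cells that carry the A isoform of the progesterone receptor (PR-A) as a stable transgene, selected as clones with the methods of an earlier study. The cells were grown in DMEM with 10% FBS to about 75% confluence, and the medium of the stable lines held the selection drug G418. On every array the EpH4-PR RNA carried Cy5 and a commercial mouse reference RNA (Stratagene mouse standard) carried Cy3, so each value is a level in EpH4-PR cells relative to that reference and not an effect of PR. Arrays of the EpH4-EV control line were not analysed here. What promoter drives PR-A, which cells the reference RNA came from, and whether the 3 arrays were separate cultures are not given in the sources used here, so the p-values measure only the spread between these arrays, which may be technical.

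A cell enters the cycle when D-type cyclins with Cdk4 and Cdk6 phosphorylate the retinoblastoma protein, which frees E2f factors to switch on the genes for S phase. Cdc6 and Cdt1 load the Mcm2 to Mcm7 ring on origins, Cdc45 joins it as the active helicase, and geminin blocks a further round of loading. Cyclin B with Cdk1 then drives mitosis, in which Aurora and Polo kinases build the spindle and the Bub and Mad proteins hold Cdc20 until every chromosome is attached. Proliferating mammary epithelium, like other dividing tissue, carries these transcripts together, since many of them are made mainly in cycling cells.

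The S phase genes and the mitotic genes are known for different promoter elements, E2f sites in the former, and the cell cycle genes homology region (CHR) with CCAAT boxes in the latter. Promoter windows from 250 bases before to 50 bases after the start were held by RefSeq (GRCm38.p6) for 36 of the 46 genes. The E2f letters searched were TTTCCCGC, TTTCGCGC, TTTGCCGC and TTTGGCGC, the CHR letters were TTTGAA and TTCGAA, and the third element was CCAAT. Both strands were read, matches were allowed to overlap, and a gene with several windows counted once. The 6 windows below were chosen to show both kinds of promoter beside different array ratios: Mcm3, Mcm6 and Rbl1 from the S phase side, Plk1, Cdk1 and Ccnb2 from the mitotic side. They run 5′ to 3′ from 170 bases before to 50 bases after the start, 220 bases each, with the E2f and CHR letters in capitals and all else in lower case.
Mcm3, chr1:20820263-20820482 (- strand): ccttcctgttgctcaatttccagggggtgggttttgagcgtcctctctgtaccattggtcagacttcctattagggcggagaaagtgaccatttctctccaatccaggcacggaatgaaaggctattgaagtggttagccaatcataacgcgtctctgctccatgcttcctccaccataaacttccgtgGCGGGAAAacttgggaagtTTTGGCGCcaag
Mcm6, chr1:128359656-128359875 (- strand): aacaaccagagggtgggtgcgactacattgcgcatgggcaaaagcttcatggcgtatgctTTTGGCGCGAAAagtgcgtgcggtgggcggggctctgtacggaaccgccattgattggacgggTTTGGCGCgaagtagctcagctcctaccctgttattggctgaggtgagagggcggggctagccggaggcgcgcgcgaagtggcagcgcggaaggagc
Rbl1, chr2:157204485-157204704 (- strand): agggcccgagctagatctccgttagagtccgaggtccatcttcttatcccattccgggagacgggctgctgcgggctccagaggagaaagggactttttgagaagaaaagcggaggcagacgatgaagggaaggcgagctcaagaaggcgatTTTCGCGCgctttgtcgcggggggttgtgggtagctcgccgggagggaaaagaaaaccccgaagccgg
Plk1, chr7:122159265-122159484 (+ strand): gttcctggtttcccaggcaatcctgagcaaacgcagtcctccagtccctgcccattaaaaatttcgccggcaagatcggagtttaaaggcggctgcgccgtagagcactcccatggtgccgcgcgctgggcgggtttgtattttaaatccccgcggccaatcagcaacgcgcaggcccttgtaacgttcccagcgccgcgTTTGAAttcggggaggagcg
Cdk1, chr10:69352863-69353082 (- strand): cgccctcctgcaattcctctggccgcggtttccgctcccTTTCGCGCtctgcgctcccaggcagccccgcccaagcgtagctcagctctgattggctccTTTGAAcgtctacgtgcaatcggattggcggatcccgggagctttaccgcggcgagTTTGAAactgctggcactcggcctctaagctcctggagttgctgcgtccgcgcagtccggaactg
Ccnb2, chr9:70421505-70421724 (- strand): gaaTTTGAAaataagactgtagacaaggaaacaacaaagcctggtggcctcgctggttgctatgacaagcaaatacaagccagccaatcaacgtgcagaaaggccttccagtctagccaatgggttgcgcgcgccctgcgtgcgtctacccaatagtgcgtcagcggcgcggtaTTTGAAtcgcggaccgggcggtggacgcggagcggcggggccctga
The Mcm3 stretch held 2 matches to the E2f letters, both in the bases after its start, and Mcm6 held 3, of which a pair overlapped on opposite strands. Rbl1, which encodes the pocket protein p107, held 1 match to the E2f letters and none to the CHR letters. Plk1 and Ccnb2 held 1 and 2 matches to the CHR letters and none to the E2f letters, whereas Cdk1 held both, with 1 match to the E2f letters and 2 to the CHR letters. A match is a run of letters and not a measured binding site.

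The letters were then counted by the phase in which the genes act. In the windows of genes of the G1 and S groups (D-type cyclins, cyclins E and A with Cdk2, E2f and pocket proteins with Myc, origin licensing, nucleotide supply with Pcna), E2f letters were found in 10 of 22 genes (45.5%), against 1 of 12 genes (8.33%) of the G2 and M groups (cyclin B and Cdk1, mitotic kinases with Birc5, spindle checkpoint, Top2a and Mki67) and 3.29% of 17492 protein-coding genes. CHR letters stood in 9 of the 12 G2 and M genes (75%), in 5 of the 22 G1 and S genes (22.7%) and in 20.2% of protein-coding genes. CCAAT stood in 10 of the 12 (83.3%), in 13 of the 22 (59.1%) and in 42.3% of protein-coding genes. Of the Mcm2 to Mcm7 genes, 5 had a window and 4 of these held E2f letters. The Cdc25 phosphatases, which act at more than 1 step, were put on neither side. As a description only, the median log2 ratio on the arrays was 0.23 for the 12 genes with E2f letters and 0.54 for the 24 without, and 0.16 for the 15 genes with CHR letters and 0.55 for the 21 without.

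**Figure D1:**
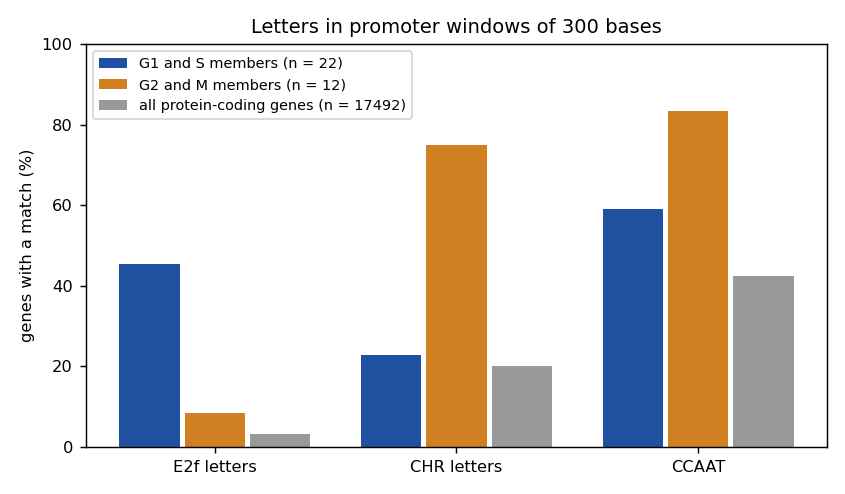
Share of genes (%, vertical axis from 0 to 100) whose RefSeq promoter window of 300 bases held the E2f letters, the CHR letters or CCAAT, for 22 G1 and S members (blue), 12 G2 and M members (orange) and 17492 protein-coding genes (grey). E2f letters were most frequent in the G1 and S members (45.5%) and CHR letters in the G2 and M members (75%).

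Between 71.9% and 75.1% of the 41174 probes stood well above background in EpH4-PR RNA and between 79.1% and 80.8% in the reference channel, and the Pearson correlation of the log2 ratios between arrays was 0.923 to 0.952 (across probes, which are not independent). The label of an epithelial cell fitted its markers, since all 7 epithelial genes were well above background in EpH4-PR RNA and 6 of them were at least 1 log2 unit higher than in the reference (Cdh1, encoding E-cadherin, at 4.29), while Krt19 lay at -2.62. All 6 mesenchymal genes were at least 1 log2 unit lower, with Vim at -6.51, although Fn1 moved from -1.21 to 0.13 under median centring. Of 4 blood cell genes 3 were at least 1 log2 unit lower. Pgr, the mouse gene of the receptor, was measured by 2 probes, both well above background in EpH4-PR RNA on 1 array only, so the transfected gene could not be checked.

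The cell cycle genes were measured in both RNAs. By the brightest probe of the gene, all 46 stood well above background in each channel of each array, and none was saturated. That probe gives the value below unless another is named. The mean log2 intensity of both channels was above the median of all genes for all 46 genes, with a median of 9.96 against 6.58, which describes the probes and not levels of expression. With loess, which sets the log2 ratio of probes of a given brightness to 0 on average, the 46 genes had a median log2 ratio of 0.41, against -0.02 for all genes and 0.05 for the 3518 genes in the middle range of the members' brightness (between their quartiles). In bulk RNA a higher share of cycling cells and more transcript per cell cannot be told apart, and neither was measured here.

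At an adjusted p under 0.05 and at least 1 log2 unit, by limma with Benjamini-Hochberg adjustment over all 41174 probes, 4 of the 46 genes were higher than in the reference RNA (8.7%, against 2.28% of all genes, 3.46% of genes well above background and 2.26% of probes) and 1 was lower (2.17%, against 4.48%, 6.54% and 3.83%). By adjusted p alone 29 were above 0 (63%, against 23.9% of all genes, 31.6% of genes well above background and 25.7% of probes), 11 were below 0 (23.9%, against 26.8%, 31.6% and 24.6%) and 6 did not pass. Most genes are dimmer than the members, so genes of their brightness are the closer measure. Of the 3518 genes in the middle range of the members' brightness, 272 were higher past the limit, a share close to the members' 8.7%. Another 299 were lower past the limit, a larger share than the members' 2.17%. By adjusted p alone 1558 of these 3518 were above 0 and 1368 below 0, a smaller share above 0 and a larger share below 0 than among the members. Past the limit of 1 log2 unit were Plk1, Mcm3, Mcm2 and Ccne1 above 0 and Rb1 below 0. Tk1 at 0.99 lay just inside the limit and Ccne1 at 1.01 just past it, and without replicate 3 Ccne1 fell inside it at 0.97, while without replicate 1 Tk1 passed it at 1.02. The processing used here shrinks the ratios of dim spots, so the log ratio of the scanner software was also tried. By it Ccne2 (1.53), E2f1 (1.24), Cdk6 (1.20), Tk1 (1.03) and Ccnb1 (1.00) were also past the limit above 0. Cdc25b (-1.05) was past it below 0, and Rb1 was -2.22. With the 46 genes sorted by their loess ratio, 36 of the 45 neighbouring pairs differed by less than the larger SD of the pair. Sorting places close values side by side, so the count says only that most neighbours have no settled order.

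**Figure D2:**
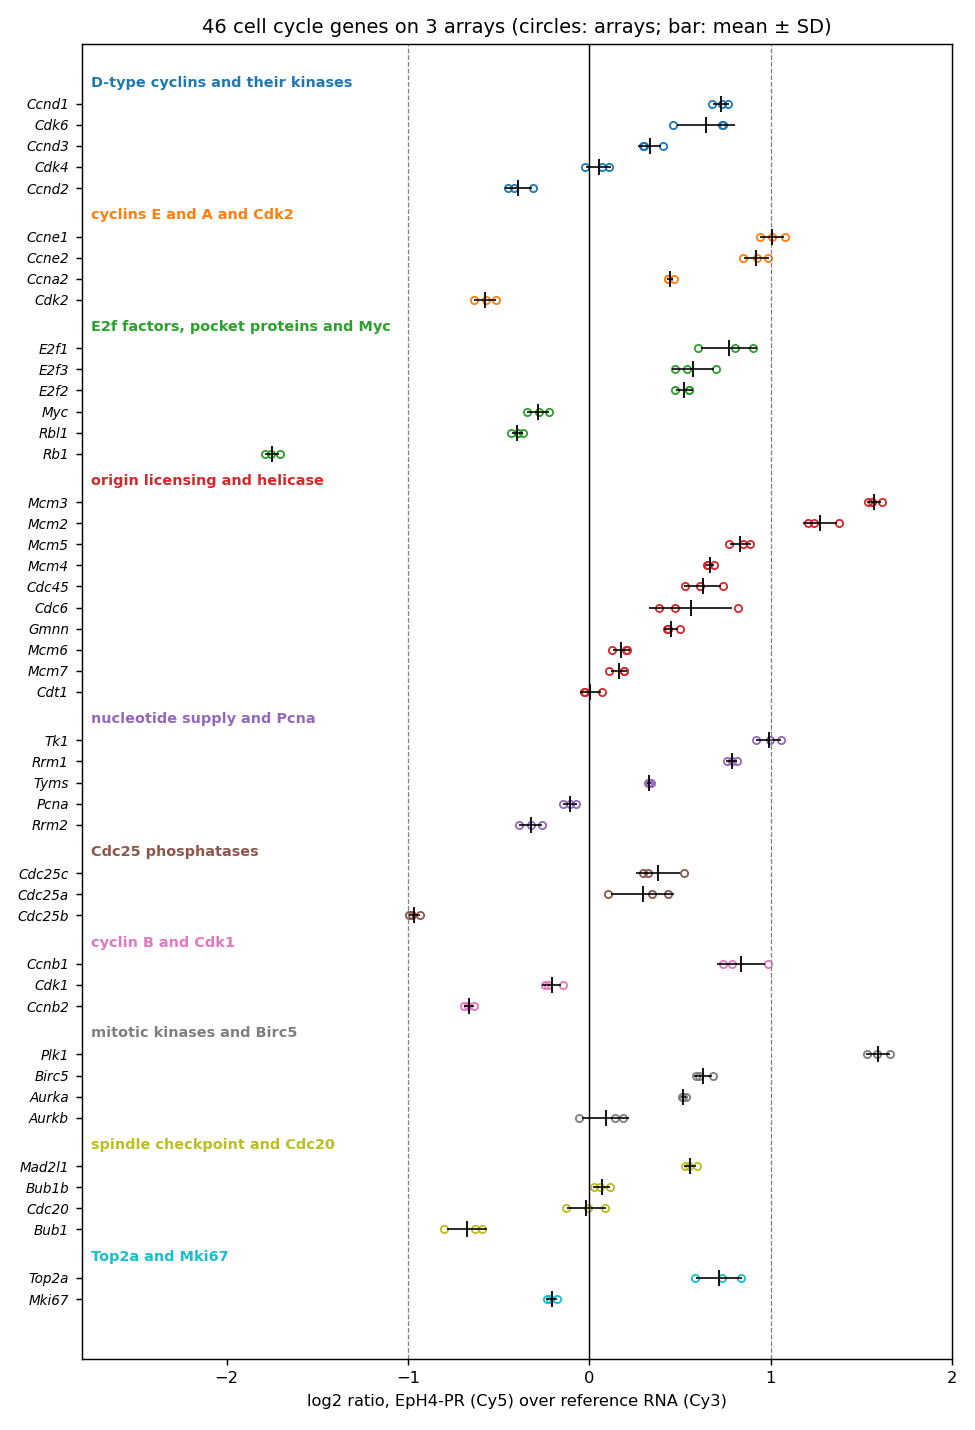
Log2 ratio, EpH4-PR over reference (horizontal axis), for each of the 46 genes, grouped by role and ordered within a group, with an open circle for each of the 3 arrays and a black bar for the mean ± SD. Dashed lines mark 1 log2 unit either way: Plk1, Mcm3, Mcm2 and Ccne1 lie past the upper line and Rb1 past the lower line; every gene below 0 except Rb1 moved above 0 under median centring.

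The zero of this scale depends on the scaling, because the members are bright. When each array was centred on its median instead of by loess, the median log2 ratio of the 46 genes was 1.54 and 45 of them lay above 0, but the genes of the same brightness then had a median of 1.30, and genes well above background one of 0.44. The members therefore lay 0.36 above genes of their brightness by loess and 0.24 above them by median centring. Of the 13 genes with a mean below 0 by loess, Rb1 alone stayed below 0 under median centring, at -0.89. The directions given below are relative to probes of the same brightness.

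**Figure D3:**
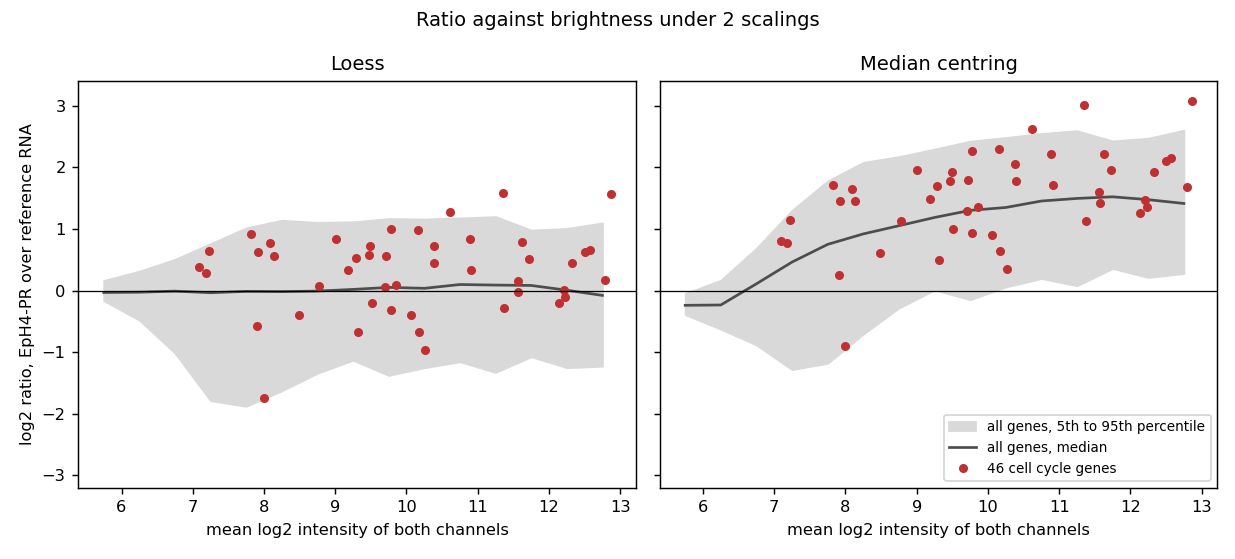
Log2 ratio, EpH4-PR over reference (vertical axis) against the mean log2 intensity of both channels (horizontal axis) after loess (left) and after median centring (right), with the 46 cell cycle genes as red points, the median of all genes as a line and their 5th to 95th percentile as a grey band. After median centring the line climbs with brightness and the red points climb with it, so that 45 of 46 lie above 0, against 33 of 46 after loess.

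Of the D-type cyclins and their kinases, which start the cycle in response to growth factors, 3 of 5 were above 0, 1 was below 0 and 1 did not pass (median 0.33). Ccnd1, encoding cyclin D1, the D-type cyclin that mammary epithelium is known to need, had log2 ratios of 0.68, 0.73 and 0.77 on replicates 1, 2 and 3 (mean 0.73 ± 0.04, SD, n = 3, adjusted p = 0.000183), which is 1.65-fold. Ccnd2 was the lowest at -0.42, -0.31 and -0.45 (mean -0.39 ± 0.07, adjusted p = 0.00225), and its 3 probes agreed between -0.43 and -0.33, yet all 3 were between 0.77 and 0.90 under median centring. The ratio of Ccnd1 to the reference thus lay above that of Ccnd2 on every array, and in the same order under median centring, at 2.06 and 0.90. Cdk6 was 0.73, 0.74 and 0.46 (mean 0.64 ± 0.16), above Ccnd1 on replicates 1 and 2 and below it on replicate 3. By the scanner software's log ratio Cdk6 was 1.20 and Ccnd1 0.74. The others were Ccnd3 at 0.33 and Cdk4 at 0.05, the last with an adjusted p of 0.419.

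Cyclin E with Cdk2 fires the entry into S phase, and cyclin A takes over within it. Ccne1, encoding cyclin E1, had log2 ratios of 1.01, 0.94 and 1.08 (mean 1.01 ± 0.07, SD, n = 3, adjusted p = 8.81e-05), a 2.01-fold higher level than in the reference by its brightest probe. The other Ccne1 probe was also above 0 but inside the limit of 1 log2 unit, at 0.62, 0.54 and 0.67 (mean 0.61 ± 0.07, adjusted p = 0.00042), and with the mean over probes 3 genes of the 46 were past the limit above 0 instead of 4. This other probe is dimmer, and the gap depended on the processing. By the scanner software's log ratio the brightest probe was 1.09 and the other 1.21. The related Ccne2 was close by, with 0.92 ± 0.07 and 1.01 ± 0.11 by its 2 probes, and the ranges of Ccne1 and Ccne2 overlapped. By the scanner software's log ratio the 2 Ccne2 probes were 1.53 and 1.81, above both Ccne1 probes. Ccna2, encoding cyclin A2, was above 0 by less, at 0.44 ± 0.02. The kinase that these cyclins share went the other way by its brightest probe: Cdk2 was -0.52, -0.57 and -0.64 (mean -0.58 ± 0.06, adjusted p = 0.000468), although it was 0.25 under median centring. The other Cdk2 probe, which carries the accession of another transcript of the gene, was 0.45, 0.20 and 0.36 (mean 0.34 ± 0.13, adjusted p = 0.00889). Under median centring that probe was 0.28. The 2 probes thus did not overlap by loess but lay together above 0 under median centring, and Cdk2 has no settled direction.

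The 3 activating E2f factors and the pocket protein genes Rb1 and Rbl1 lay on opposite sides of 0 by loess, and of the pocket protein genes Rb1 alone stayed below 0 under median centring. E2f1 was 0.60, 0.80 and 0.90 (mean 0.77 ± 0.15, SD, n = 3, adjusted p = 0.000711), E2f3 was 0.57 ± 0.12 and E2f2 was 0.52 ± 0.05, and all 6 of their probes were above 0, although the dimmest E2f3 probe was well above background in the reference channel on only 1 of the 3 arrays. E2f1 had the highest mean by loess and the lowest under median centring (1.65, against 1.78 for E2f3 and 1.69 for E2f2), so the 3 have no settled order. The gene with the lowest ratio of all 46 was Rb1, the retinoblastoma gene itself, with log2 ratios of -1.71, -1.79 and -1.76 (mean -1.75 ± 0.04, adjusted p = 2.21e-05), a 3.37-fold lower level than in the reference. Its normalized EpH4-PR intensity was 150.5, 137 and 131 on the 3 arrays against 492, 474 and 442 in the reference channel. The dimmer Rb1 probe was not well above background in EpH4-PR RNA on any array, so the size of its ratio is uncertain. Its measured mean was -0.34 ± 0.17 (adjusted p = 0.0174), and -1.18 by the scanner software's log ratio. Of the 46 genes, Rb1 alone was below 0 both by loess and by median centring. Rbl1, the gene of p107, was -0.37, -0.43 and -0.39 (mean -0.40 ± 0.03, adjusted p = 0.00128) but 0.60 under median centring. Myc, a transcription factor that promotes growth and cell cycle entry, had 3 probes that disagreed. Its brightest probe was -0.28, -0.22 and -0.34 (mean -0.28 ± 0.06, adjusted p = 0.00617), the next -0.19 ± 0.03 and the dimmest 0.30 ± 0.09, and all 3 were above 1 under median centring.

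Origin licensing and the helicase, the largest of the groups, had the most genes above 0. By their brightest probes 9 of 10 passed above 0 and none below (median 0.59). The median of cyclins E and A with Cdk2 was higher, at 0.68. All 6 Mcm genes, the subunits of the ring that unwinds DNA, were above 0, but unequally, from 0.16 to 1.57. Mcm3 led with 1.61, 1.54 and 1.56 (mean 1.57 ± 0.04, SD, n = 3, adjusted p = 2.59e-05), which is 2.96-fold, and its dimmer probe gave 1.49. Mcm2 followed with 1.24, 1.38 and 1.20 (mean 1.27 ± 0.09, adjusted p = 6.36e-05), which is 2.41-fold. Mcm5 at 0.83 and Mcm4 at 0.66 stood between, and Mcm6 and Mcm7 were the lowest. Mcm6 was 0.21, 0.12 and 0.20 (mean 0.18 ± 0.05, adjusted p = 0.0251) and Mcm7 was 0.11, 0.19 and 0.19 (mean 0.16 ± 0.05, adjusted p = 0.0317), and neither passed any longer when any single array was left out. The lowest value of Mcm2 on an array exceeded the highest of Mcm4, Mcm5, Mcm6 and Mcm7. In the ring the 6 proteins are known to stand in equal number. The promoter windows shown above for Mcm3 and Mcm6 both held E2f letters, at ratios of 1.57 and 0.18.

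The genes of this group outside the Mcm ring had lower mean ratios than Mcm3 and Mcm2. Cdc45, which joins the ring when an origin fires, was 0.62 ± 0.10 and Gmnn, encoding the licensing inhibitor geminin, 0.45 ± 0.04. Its target Cdt1 was 0.07, -0.02 and -0.03 (mean 0.01 ± 0.06, SD, n = 3, adjusted p = 0.925), and was not told apart from 0. Cdc6 had 2 probes on opposite sides of 0. The brighter was 0.38, 0.47 and 0.82 (mean 0.56 ± 0.23, adjusted p = 0.00657), the widest spread between arrays of the 46 genes, and the dimmer was -0.18, -0.31 and -0.35 (mean -0.28 ± 0.09, adjusted p = 0.00948), which was 0.15 under median centring.

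Of the genes for nucleotide supply and Pcna, 3 of 5 were above 0, 1 was below 0 and 1 did not pass (median 0.33). Tk1, encoding the thymidine kinase of dividing cells, was the highest at 0.92, 1.05 and 0.99 (mean 0.99 ± 0.07, SD, n = 3, adjusted p = 9.41e-05), which is 1.98-fold. The 2 subunits of ribonucleotide reductase, which work as 1 enzyme, lay apart: Rrm1, the large subunit, was 0.76, 0.82 and 0.78 (mean 0.79 ± 0.03, adjusted p = 0.000127), and Rrm2, the small subunit whose level follows S phase, was -0.32, -0.26 and -0.39 (mean -0.32 ± 0.06, adjusted p = 0.00388), or 0.93 under median centring. On every array the ratio of Rrm1 lay above that of Rrm2. Pcna, the clamp that holds the polymerase on DNA, did not pass at -0.15, -0.11 and -0.07 (mean -0.11 ± 0.04, adjusted p = 0.0908) and was 1.36 under median centring. Tyms, encoding thymidylate synthase, was 0.32, 0.34 and 0.33 on the brightest of its 3 probes (mean 0.33 ± 0.01, adjusted p = 0.00221) and 0.36 ± 0.04 on the next, while the dimmest did not pass at -0.10 ± 0.09 (adjusted p = 0.158).

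The 3 Cdc25 phosphatases remove the phosphates that hold cyclin-dependent kinases inactive. Cdc25c was 0.52, 0.30 and 0.32 (mean 0.38 ± 0.12, SD, n = 3, adjusted p = 0.00549), and 0.25 ± 0.06 by its other probe. Cdc25a was 0.35, 0.43 and 0.10 (mean 0.29 ± 0.17, adjusted p = 0.027), and did not pass without replicate 1 or without replicate 2 (0.27 and 0.22, adjusted p = 0.104 and 0.126), while its dimmer probe was 0.68, 0.76 and 0.36 (mean 0.60 ± 0.21, adjusted p = 0.00407). Cdc25a and Cdc25c overlapped between arrays, so they have no order. Cdc25b lay just inside the limit of 1 log2 unit by its brightest probe, at -0.93, -0.99 and -0.98 (mean -0.97 ± 0.03, adjusted p = 7.12e-05), which is a 1.96-fold lower level, but its other probes were -0.30 ± 0.01 and 0.17 ± 0.09. All 3 changed sign under median centring, to 0.35, 0.82 and -0.07, so the direction of Cdc25b depended on both the probe and the scaling.

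The partners that drive mitosis did not move together. Ccnb1, encoding cyclin B1, was 0.79, 0.74 and 0.98 (mean 0.84 ± 0.13, SD, n = 3, adjusted p = 0.000371), and its other probes agreed at 0.55 and 0.53. Ccnb2, encoding cyclin B2, was -0.67, -0.69 and -0.64 (mean -0.67 ± 0.03, adjusted p = 0.000208), and 0.64 under median centring. The ratios of the 2 B-type cyclin genes were apart on every array by loess and stayed in this order under median centring, at 1.95 and 0.64. Their kinase Cdk1 was -0.15, -0.23 and -0.25 on its brighter probe (mean -0.21 ± 0.05, adjusted p = 0.0155, 1.00 under median centring), while the dimmer probe, well above background in each channel on 2 of the 3 arrays, was 0.13, 0.12 and 0.13 and did not pass (adjusted p = 0.0504, -0.12 under median centring). In the promoter windows above, Cdk1 and Ccnb2 held CHR letters as Plk1 did, at log2 ratios of -0.21 and -0.67 by loess (1.00 and 0.64 under median centring) against 1.59 for Plk1.

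Plk1, the Polo kinase that matures the centrosomes and prompts mitotic entry, had log2 ratios of 1.53, 1.58 and 1.66 (mean 1.59 ± 0.06, SD, n = 3, adjusted p = 3.01e-05), a 3.01-fold higher level than in the reference. Its normalized EpH4-PR intensity was 4700, 4184 and 4721 against 1630, 1395 and 1497 in the reference channel, so every array showed the difference. Birc5 and the Aurora kinases were lower in ratio. Birc5, encoding survivin, which works with Aurora B in the chromosomal passenger complex, was 0.62 ± 0.05, and Aurka, the spindle pole Aurora kinase, was 0.52 ± 0.01. Aurkb, the Aurora kinase of that complex, was the lowest at 0.18, 0.14 and -0.06 (mean 0.09 ± 0.13, adjusted p = 0.288), and passed without replicate 3 (0.16, adjusted p = 0.0458).

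Among the spindle checkpoint genes, which delay anaphase until all kinetochores are attached, 1 of 4 was above 0, 1 was below 0 and 2 did not pass (median 0.02). Mad2l1, encoding the inhibitor that binds Cdc20, was 0.55, 0.52 and 0.59 (mean 0.55 ± 0.03, SD, n = 3, adjusted p = 0.000396), with 0.62 on its other probe. Bub1, a checkpoint kinase at the kinetochore, was -0.59, -0.63 and -0.80 (mean -0.67 ± 0.11, adjusted p = 0.000587), and 0.50 under median centring. Its relative Bub1b, encoding BubR1, lay at 0.07 and Cdc20, the activator that the checkpoint holds, at -0.02, with adjusted p of 0.26 and 0.824. Both were above 1 under median centring.

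The last genes are common marks of proliferation. Top2a, the topoisomerase that disentangles sister chromosomes, was 0.73, 0.83 and 0.58 (mean 0.72 ± 0.13, SD, n = 3, adjusted p = 0.000608), and its dimmer probe agreed at 0.78 ± 0.20. Mki67, the gene of the Ki-67 antigen, gave opposite signs on its 2 probes. The brighter was -0.22, -0.23 and -0.18 (mean -0.21 ± 0.03, adjusted p = 0.0122), which did not pass without replicate 1 or without replicate 2 and was 1.25 under median centring, and the dimmer was 0.49, 0.64 and 0.62 (mean 0.58 ± 0.08, adjusted p = 0.000571).

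Probes of the same gene were compared as a check on these values. Of the 20 genes with several probes, 12 had all probes on the same side of 0 and within 1 log2 unit of each other, among them Mcm3 with both probes past the limit (1.57 and 1.49) and Ccne1 with 1 of 2 past it (1.01 and 0.61). By the scanner software's log ratio both Ccne1 probes were past 1 log2 unit, at 1.09 and 1.21. In 7 genes probes lay on opposite sides of 0 (Cdk2, Myc, Cdc6, Tyms, Cdc25b, Cdk1 and Mki67), and in 3 of these (Tyms, Cdc25b and Cdk1) they also did so under median centring. Cdc25b and Rb1 had probes that differed by over 1 log2 unit. Plk1 and Mcm2 had a single probe each.

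**Figure D4:**
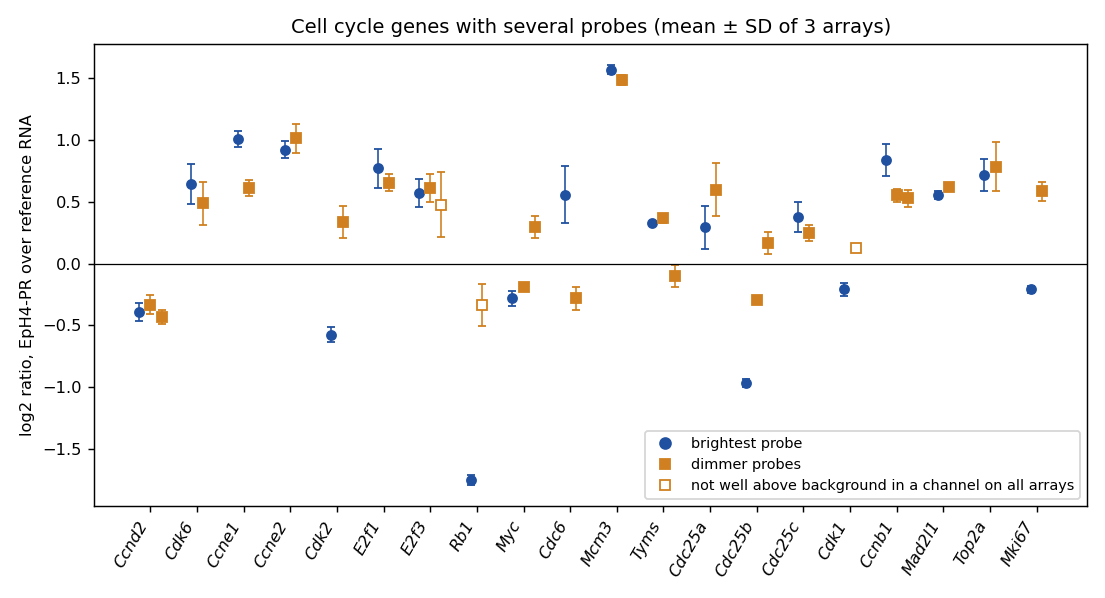
Log2 ratio, EpH4-PR over reference (vertical axis, mean ± SD of 3 arrays) for each probe of the 20 genes that had several, with the brightest probe as a blue circle and dimmer probes as orange squares, open where a channel was not well above background on all arrays. Probes of 7 genes straddle 0 by loess, and those of 3 of these genes also do so under median centring; the 2 Mcm3 probes lie together near 1.5.

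Other genes of the pathway, taken from 8 lists of cell cycle and replication factors outside the 46, had a similar spread. Of 107 such genes 103 had a probe. By adjusted p alone 64 of these were above 0 (23.9% of all genes were), 21 were below 0 (26.8% of all genes) and 18 did not pass, with a median of 0.29. Past the limit of 1 log2 unit 9 of the 103 were higher (2.28% of all genes) and 2 were lower (4.48% of all genes), and with the mean over probes 6 were higher. These lists are also bright, with a median log2 intensity of 9.41 against 6.58 for all genes. The 3518 genes in the middle range of the members' brightness had 9.85. Of those 3518, 272 were higher past the limit, a share close to that of the 103 genes, and 299 were lower, a larger share than theirs. By adjusted p alone 1558 of them were above 0 and 1368 below 0, a smaller share above 0 and a larger share below 0 than among the 103. The medians of the 8 lists ran from 0.05 for origin recognition and firing (7 of 14 above 0 and 5 below) to 0.49 for kinetochore and spindle genes (16 of 23 above 0 and 3 below). Of the polymerases and replication factors 13 of 22 were above 0 and 4 below, and of the subunits and regulators of the anaphase-promoting complex 10 of 14 were above 0 and 1 below. Smaller lists were the E2f and Myb-MuvB partners (7 of 11 above 0 and 1 below), cohesin and condensin (4 of 7 above 0 and 3 below), checkpoint kinases (3 of 5 above 0 and 2 below) and other cyclins and kinases (4 of 7 above 0 and 2 below).

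The 5 highest of these genes were Smc2, Pold2, Foxm1, Mybl2 and Fen1. Smc2 and Smc4 form the core of condensin as partners and stood at opposite ends: Smc2 was 1.94, 2.00 and 1.80 (mean 1.91 ± 0.10, SD, n = 3, adjusted p = 2.83e-05) and Smc4 was -1.20, -1.32 and -1.36 (mean -1.29 ± 0.08, adjusted p = 5.6e-05), which moved to 0.17 under median centring while Smc2 moved to 3.08. Pold2, a subunit of DNA polymerase delta, was 1.57, 1.52 and 1.51 (mean 1.53 ± 0.03, adjusted p = 2.62e-05), and Fen1, the nuclease that trims Okazaki fragments, was 1.19, 1.18 and 1.16 (mean 1.17 ± 0.01, adjusted p = 4.2e-05). Foxm1 and Mybl2 encode the factors that act on CHR promoters together with MuvB. Foxm1 was 1.30, 1.31 and 1.29 (mean 1.30 ± 0.01, adjusted p = 3.34e-05) and Mybl2 was 1.155, 1.0995 and 1.299 (mean 1.18 ± 0.10, adjusted p = 8.56e-05). The lowest was Ccng2, encoding cyclin G2, a cyclin known from cells that leave the cycle, at -2.11, -2.08 and -2.05 (mean -2.08 ± 0.03, adjusted p = 1.78e-05), a 4.23-fold lower level, and it stayed below 0 under median centring at -0.81.

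**Figure D5:**
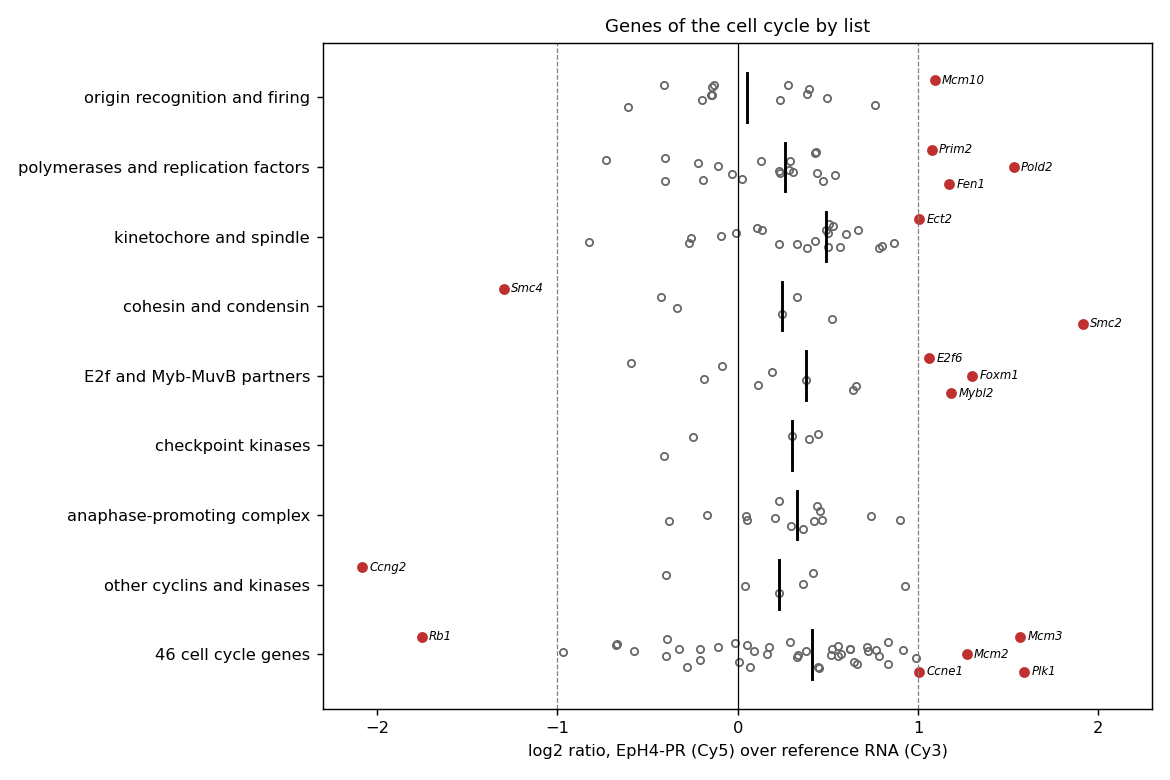
Log2 ratio, EpH4-PR over reference (horizontal axis, mean of 3 arrays) for the 103 other genes of the pathway in 8 lists and for the 46 cell cycle genes, with a point for each gene (height within a row has no meaning), a black bar for the median of the list and filled red points with names for genes past 1 log2 unit at an adjusted p under 0.05. Ccng2, Rb1 and Smc4 lie past the lower dashed line, and Smc4 moved above 0 under median centring.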

How the data were processed

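RNA of EpH4-PR cells (Cy5) and a reference RNA (Cy3) was hybridised to 3 arrays on separate slides, scanned in 1 session, without a dye swap. The authors deposited the output of Agilent Feature Extraction 8.1.1.1, which gives each of 43790 spots its mean intensity and local background intensity in both channels, processed intensities and the log10 ratio (Cy5 over Cy3). A deposited table of the authors' fold changes, with unnamed groups, was not used. The mean spot intensity was corrected with normexp (offset 50) and normalized within arrays by loess (limma 3.58.1, R 4.3.3). The 2256 control spots and 150, 18 and 3 outlier spots were left out and the spots of a probe averaged. Log2 ratios, computed here from the deposited intensities, were tested against 0 (lmFit, eBayes) and adjusted over 41174 probes by Benjamini-Hochberg. Calls needed an adjusted p under 0.05 and at least 1 log2 unit. A gene stood for its probe with the highest mean of both channels. Local background was subtracted and an offset added, which shrinks the ratios of dim spots. Of the 72 probes of the 46 genes, 63 were named by RefSeq accession (GRCm38.p6 gene table, 21445 of 23705 such probes matched) and 9 by the file, and 4 carried an older name. The fit was tested on simulated data. Promoter windows were read with Python 3.11.15. No depth applies to arrays, and their number limits the precision.

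The members, the other lists and the tests were chosen with earlier results of these data known. Values on every array were given for called genes, the highest and lowest of each role group, genes whose probes differed in sign or by over 1 log2 unit, and the 5 highest and 5 lowest called genes of the other lists (only 2 were lower). Promoter windows were chosen after the values were seen. Alternatives covered background correction, the scanner software's log ratio, median centring, Aquantile between arrays, leaving out dim probes, keeping outlier spots, median in place of mean spot intensity, an intensity trend in the prior, the methods' t-test, the mean over probes, no limit on the ratio and each array left out.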

Additional observations from a re-analysis of the deposited data

How the results depend on the processing

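The 4 genes called higher and 1 called lower became 7 and 2 with normexp offset 0, 9 and 2 with the log ratio of the scanner, 36 and 0 under median centring and 29 and 11 by adjusted p alone. The counts by adjusted p alone (29 and 11) became 45 and 1 under median centring, and 7 were below 0 with the mean over probes. The median of 0.41 became 0.50, 0.53 and 1.54 with offset 0, the scanner's ratio and median centring. For the other lists, 9 and 2 became 79 and 0 under median centring and 64 and 21 by adjusted p alone, 64 and 21 became 100 and 1 under median centring, and the median of 0.29 became 0.32, 0.40 and 1.44 under the same 3 alternatives. Over all probes, 932 and 1578 became 3125 and 3905, 3616 and 3887, and 7058 and 706 under these, and 10568 and 10122 by adjusted p alone, which became 17542 and 16744 under median centring and 5523 and 5722 by the methods' t-test after Benjamini-Hochberg adjustment. The offset shrinks dim ratios less by construction when it is 0. Under median centring the median of all genes was -0.24 near a mean log2 intensity of 5.75 and 1.52 near 11.75. By loess these 2 medians were -0.03 and 0.08. What causes the other changes was not tested.

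Median centring turned the sign of Ccnd2 (0.90, other probes 0.88 and 0.77), Cdk2 (0.25), Rbl1 (0.60), Myc (1.14 and 1.16), the dimmer Cdc6 probe (0.15), Pcna (1.36), Rrm2 (0.93), Cdc25b (0.35, 0.82 and -0.0654), Cdk1 (1.00 and -0.12), Ccnb2 (0.64), Bub1 (0.50), Cdc20 (1.41), Mki67 (1.25) and Smc4 (0.17). The mean over probes turned Mki67 to 0.19. With each array left out, Cdt1 ranged from -0.0272 to 0.0245 and Cdc20 from -0.0690 to 0.0393, neither past the threshold, the genes called higher numbered 3 to 5 and those lower 1. Mcm6, Mcm7, Cdc25a, Cdk1, Mki67 and Aurkb crossed the threshold of adjusted p when some array was left out (Cdk1 without replicate 2, -0.20, adjusted p = 0.0988). Plk1, Mcm3, Mcm2 and Rb1 kept their direction and an adjusted p under 0.05 under every alternative run. Aquantile cannot move a ratio, by its construction. No paired analysis was possible because all arrays belong to 1 group. No slide or scan block could be fitted, since each slide held 1 array.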
